A study of Mus musculus with 36 samples.

Results

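Oligodendrocytes are the cells that wrap axons of the brain in myelin, and 33 genes of this cell type and of its sheath are described here across the forebrain and cerebellum of 3 lines of mutant mice. They were taken by name, as a list of 28 genes of mature oligodendrocytes, of myelin and of the lineage, and of 5 genes used for precursors (Pdgfra, Cspg4, Gpr17, Olig1 and Olig2), out of 18193 genes that the array names. Of the 33, 32 have a probe set that names 1 gene. Trf, which encodes the iron carrier transferrin, shares its probe set with Srprb, so no value is given for it. Each gene is represented by its probe set with the highest mean over all 36 arrays.

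Total RNA was measured on 1-colour Affymetrix arrays, 1 array for each of 36 samples in 12 groups of 3. The stg-/-, tg-/- and lh-/- mice carry mutations that the symbols tie to stargazer (Cacng2, a calcium channel gamma subunit that also serves AMPA receptors), tottering (Cacna1a, which forms the pore of P/Q-type channels) and lethargic (Cacnb4, a channel beta subunit), and the stg+/+, tg+/+ and lh+/+ mice are the controls of each line. Each of these 6 genotypes has 3 cerebellum and 3 forebrain arrays, and no treatment beyond sacrifice is labelled. Age, strain and whether both tissues came from the same mice are not given in the sources used here, nor is it clear that each array is a separate animal, so p-values measure the spread between these samples, which may be technical. The mutations are of the whole animal and not of oligodendrocytes alone.

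Myelin is built from membrane that is rich in cholesterol and galactolipids and is held together by a small set of abundant proteins. Mbp joins the cytoplasmic faces of the sheath, Mog and Mag lie on its outer and inner faces, and Cldn11 forms its tight junctions. Precursor cells, which carry Pdgfra and the Cspg4 proteoglycan, persist in the adult brain and pass through a stage marked by Gpr17 and Bcas1 before they make myelin under the control of Sox10, Olig2 and Nkx6-2. In tissue RNA a lower signal can come from fewer cells of a type or from less RNA per cell, and these cannot be told apart here.

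Genes that mark each tissue and line were checked against the labels first. Gabra6, a receptor subunit of cerebellar granule cells, gave signals of 5222 to 9171 on the cerebellum arrays and 2.83 to 178 on the forebrain arrays. Neurod6, a transcription factor of cortical neurons, ran the other way, with 25.3 to 61.4 in cerebellum and 159 to 583 in forebrain. The 159 came from tg+/+ replicate 2, and the other forebrain arrays gave 329 to 583. That array also gave 758 for Cacnb4 and the highest forebrain signal of Cnp, 5767, and it is kept among the tg controls. Cacng2 gave 1.59 to 6.93 on the stg-/- arrays and 235 to 841 on the stg+/+ arrays, and Cacnb4 gave 591 to 1508 on the lh-/- arrays and 1216 to 2596 on the lh+/+ arrays. Tottering is a missense allele, so the level of Cacna1a does not check the tg labels. The signals of the defining myelin genes Mbp, Mog, Mag, Mobp and Cnp were present in both tissues on every array, the lowest being 171 for Mog. Pituitary hormone transcripts were high on 3 of the +/+ forebrain arrays (stg replicates 1 and 2, lh replicate 3), where Gh reached 3526, against a median of 27.99 over all forebrain arrays. Among the members, stg+/+ cerebellum replicate 3 and stg-/- forebrain replicate 3 stood low for mature genes and stg+/+ cerebellum replicate 2 for Cspg4, and results that rest on them are given with and without them.

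In +/+ mice, 26 of the 32 member genes differed between cerebellum and forebrain, 25 of them lower in cerebellum and 1, Nkx2-2, higher (limma, adjusted p under 0.05). Over all 27022 probe sets tested, 58.2 percent differed, 25.8 percent lower and 32.4 percent higher, so a difference as such is common, while 1 of the 32 members lay above 0, against 55.2 percent of all probe sets. The median difference on the log2 scale was -0.44 over the members and 0.06 over all probe sets. It was -1.09 for the 5 precursor genes and -0.37 for the other 27.

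Of the 6 genes with the largest difference, 4 were precursor genes. Gpr17, a receptor of cells on the way to myelination, gave a signal of 40.9, 64.9 and 87.2 in cerebellum (lowest, median and highest of 9 +/+ arrays) and 137, 191 and 223 in forebrain. Pdgfra, the receptor that binds the growth factor PDGF-AA, gave 93.3, 131 and 177 in cerebellum and 265, 343 and 372 in forebrain. In both genes no cerebellum array reached a forebrain array. The difference was -1.48 ± 0.13 on the log2 scale for Gpr17 (SE, n = 9 arrays per tissue, adjusted p = 1.31e-11) and -1.29 ± 0.10 for Pdgfra (SE, adjusted p = 3.11e-12). Olig1, a transcription factor of the lineage, gave 647, 782 and 948 in cerebellum and 1446, 1572 and 1984 in forebrain, a difference of -1.04 ± 0.05 (SE, adjusted p = 5.84e-18). Olig2, its neighbour on chromosome 16 and the factor that specifies the lineage, differed by -1.09 ± 0.13 (SE, adjusted p = 1.16e-08). Cspg4, the proteoglycan also known as NG2, gave 2.83, 33.5 and 42.9 in cerebellum and 23.1, 35.2 and 50.6 in forebrain. Its groups overlapped and its difference of -0.37 ± 0.24 did not pass (SE, adjusted p = 0.186). It was -0.084 without stg+/+ cerebellum replicate 2 and -0.53 without replicate 3 (adjusted p = 0.687 and 0.0542). A second, dimmer probe set of Cspg4 differed by -1.54. Pdgfra and Cspg4 are also carried by fibroblasts and pericytes, and of 9 tested markers of those cells 3 were called between the tissues, 2 higher and 1 lower in cerebellum, with a median difference of 0.11; their part in the result was not tested.

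Among the genes of mature cells the difference was uneven. Nkx6-2, a transcription factor of myelinating cells, gave 9.92, 19.1 and 27.1 in cerebellum and 47.2, 53.5 and 57.3 in forebrain, and Opalin, a membrane protein of mature oligodendrocytes, gave 76.1, 153 and 211 in cerebellum and 217, 345 and 464 in forebrain. The differences were -1.40 ± 0.17 and -1.16 ± 0.13 (SE, adjusted p = 2.31e-08 and 6.76e-09). Sox10, the factor that drives myelin genes, Mal, a proteolipid of compact membrane, and Pllp, a related proteolipid, differed by -0.92, -0.90 and -0.86. Among the defining genes, Mog, Mobp and Mag were lower in cerebellum, by -0.60 ± 0.08, -0.56 ± 0.06 and -0.47 ± 0.10 (SE, adjusted p = 4.29e-08, 1.76e-09 and 2.49e-04). Mobp, a small basic protein of the sheath, gave 2386, 3038 and 3258 in cerebellum and 3796, 4408 and 4758 in forebrain, with no overlap.

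For Mbp and Cnp, which are among the best known myelin transcripts, the probe sets used did not pass. Mbp gave 7446, 9975 and 11383 in cerebellum and 8824, 10924 and 12490 in forebrain, and Cnp, a phosphodiesterase of uncompacted myelin, gave 2984, 4163 and 4754 in cerebellum and 3554, 4017 and 5767 in forebrain. Both overlapped between the tissues, and their differences of -0.11 ± 0.07 and -0.06 ± 0.08 did not pass (SE, adjusted p = 0.199 and 0.530). Other probe sets of both genes did pass, at -0.19 to -0.73 for 6 of the other 7 of Mbp and at -0.34 and -0.32 for the other two of Cnp, all of them dimmer. Fa2h, which hydroxylates the fatty acids of galactolipids, Gjb1, a gap junction protein, and Lpar1, a lysophosphatidic acid receptor, also did not pass, at -0.25, -0.16 and -0.15. Nkx2-2, a transcription factor of the lineage, gave 58.6, 81.1 and 99.9 in cerebellum and 55.1, 65.5 and 89.0 in forebrain, and was higher in cerebellum by 0.27 ± 0.10 (SE, adjusted p = 0.0290) with overlapping groups. This call was lost in 12 of 27 alternatives, with 0.21 under quantile normalization (limma, adjusted p = 0.0794) and 0.19 without the 3 arrays with pituitary transcripts. Among the 12 are the blocks for run of records and for replicate number, which lie within tissue and line. They give levels at 1 run or 1 replicate number, so they do not adjust the difference between tissues. In all, 13 of the 32 members had every cerebellum array below every forebrain array, against 11 percent of all probe sets.

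**Figure D1:**
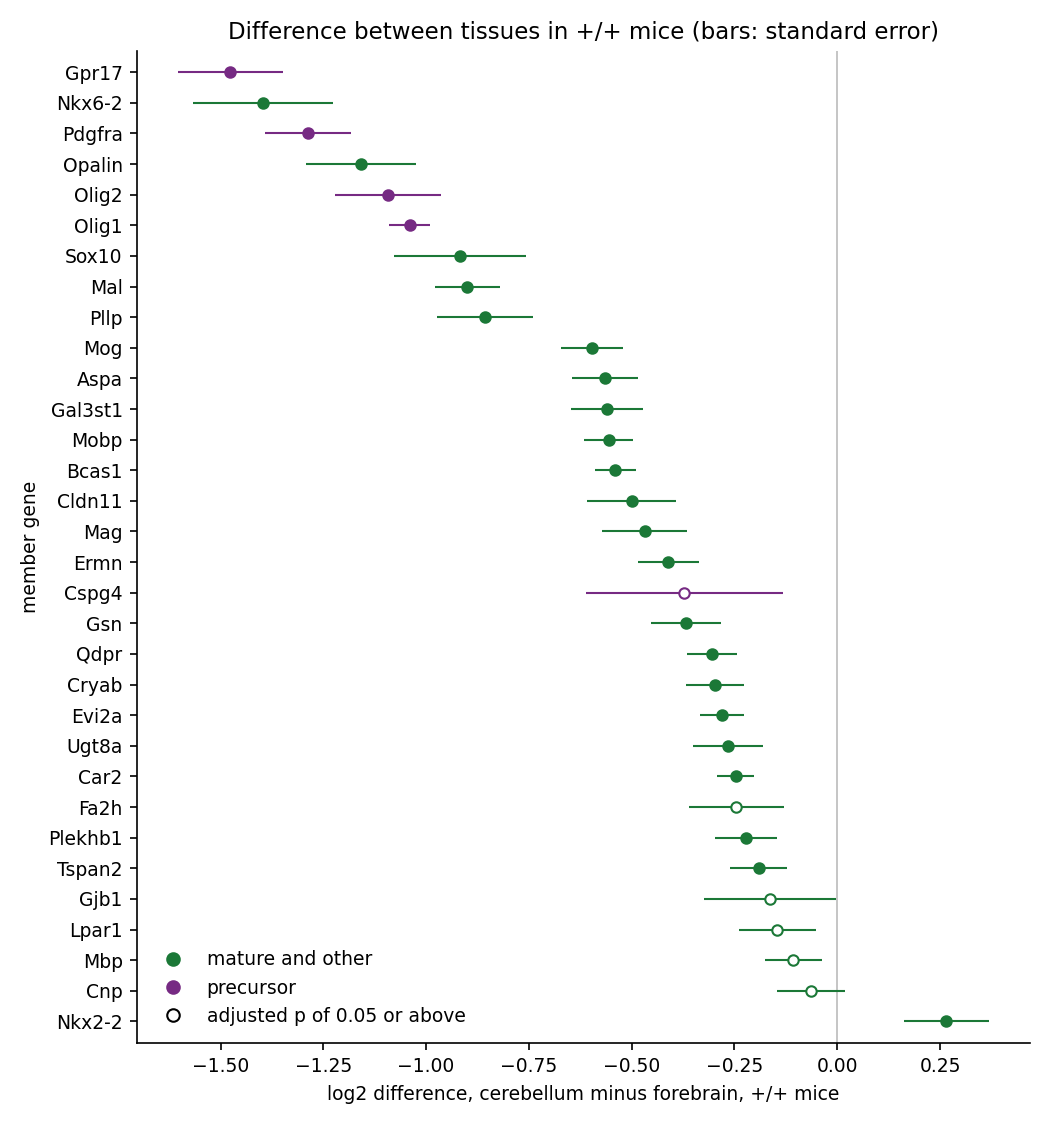
Log2 difference between cerebellum and forebrain in +/+ mice (x axis) for each of the 32 member genes (y axis, from the lowest), with the standard error as bars and 9 arrays per tissue. Filled points passed limma's test at an adjusted p of 0.05; 4 of the 5 precursor genes lie at or below -1.04, and 31 of the 32 genes lie below 0.

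Genes that serve the same cells but lie outside the members were divided. Of 36 other myelin and oligodendrocyte genes tested, 16 were lower and 7 higher in cerebellum; Tcf7l2, a transcription factor that is also abundant in thalamus, differed by -2.28 and Septin4, which forms filaments within myelin, by 1.17. Of 18 sterol synthesis genes 12 were lower and 1 was higher, with Fdft1, Hmgcs1 and Msmo1 at -1.12, -1.10 and -1.05. Of 15 sphingolipid and very long chain fatty acid genes 3 were lower and 2 higher. Of 14 other precursor genes 6 were lower and 6 higher, with a median of 0.02. Microglia markers moved with the members in this comparison, with all 10 tested called lower and a median of -1.38, as did markers of thalamus, with 6 of 7 lower and a median of -1.25, and of pituitary and hypothalamus, with 5 of 7 lower and a median of -1.64; whether they share a source with the members was not tested. Without the 3 arrays with pituitary transcripts 23 of the 32 members were called, and Ugt8a, Plekhb1 and Nkx2-2 were not (adjusted p = 0.0540, 0.0804 and 0.210).

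In the cerebellum of the mutants, the mature myelin genes leaned higher than in +/+ mice, and the probe sets used passed the test only when the 3 lines were averaged. In the mean effect of the 3 lines, 3 of the 31 members tested rose (Mal, Plekhb1 and Mobp) and 0 fell (limma, adjusted p under 0.05), against 1.97 percent of all probe sets called, 1.04 percent higher and 0.933 percent lower. Of the 31, 28 lay above 0, against 51.7 percent of all probe sets, and 12 were higher and 0 lower at an unadjusted p under 0.05, against 6.82 and 5.43 percent of all. The median was 0.16 on the log2 scale for the 26 mature and other genes, 0.09 for the 5 precursor genes and 0.01 for all probe sets. Nkx6-2 lay under the filter on dim probe sets and is not among the 31. Without stg+/+ replicate 3, the array with the lowest mature genes, 2 members were called and 26 of 31 lay above 0. Without limma's intensity trend 0 members were called in the mean effect, and 10 were called once replicate numbers were added as a block. These numbers met the limit set for a pairing, a correlation of 0.1, in stg but not in every pair of tg and lh.

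Mal, Plekhb1 and Mobp are the members called here and Mog the next in line, and the 300 bases around the start of each gene (250 before to 50 after, RefSeq, GRCm38.p6) are shown so that they can be compared. Capitals mark ACAAAG or its reverse complement CTTTGT, the core that SOX-family factors such as Sox10 bind; both strands were searched for it and for the E-box CAGCTG, which bHLH factors such as Olig2 can bind. Mobp lies at chr9:120149492-120149791 on the plus strand, Mal at chr2:127656646-127656945, Plekhb1 at chr7:100662345-100662644 and Mog at chr17:37023349-37023648, all 3 on the minus strand, and each is written 5′ to 3′ on the strand of its gene.
Mobp: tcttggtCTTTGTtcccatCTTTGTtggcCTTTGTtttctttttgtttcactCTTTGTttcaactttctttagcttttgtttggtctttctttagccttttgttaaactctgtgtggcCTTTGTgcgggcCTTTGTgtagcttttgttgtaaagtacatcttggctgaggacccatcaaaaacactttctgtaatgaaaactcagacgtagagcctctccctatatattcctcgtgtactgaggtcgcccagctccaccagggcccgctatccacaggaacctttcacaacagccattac
Mal: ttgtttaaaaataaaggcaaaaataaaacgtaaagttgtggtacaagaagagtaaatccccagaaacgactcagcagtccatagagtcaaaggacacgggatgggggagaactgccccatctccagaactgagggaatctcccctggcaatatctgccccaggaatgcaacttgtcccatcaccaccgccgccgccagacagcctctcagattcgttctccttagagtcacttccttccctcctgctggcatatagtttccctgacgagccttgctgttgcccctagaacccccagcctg
Plekhb1: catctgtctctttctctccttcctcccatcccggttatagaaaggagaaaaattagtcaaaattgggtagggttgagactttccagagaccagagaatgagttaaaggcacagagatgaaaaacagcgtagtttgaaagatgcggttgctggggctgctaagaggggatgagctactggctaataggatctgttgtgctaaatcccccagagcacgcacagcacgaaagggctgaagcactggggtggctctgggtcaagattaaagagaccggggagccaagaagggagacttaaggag
Mog: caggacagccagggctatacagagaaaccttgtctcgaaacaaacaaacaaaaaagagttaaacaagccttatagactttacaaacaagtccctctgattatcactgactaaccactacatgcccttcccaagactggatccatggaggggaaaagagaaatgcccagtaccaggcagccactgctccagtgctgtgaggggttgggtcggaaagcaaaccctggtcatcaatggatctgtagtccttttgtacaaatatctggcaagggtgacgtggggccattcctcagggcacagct

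The Mobp window holds 6 copies of CTTTGT in a T-rich stretch, and the other windows hold no copy on either strand. The E-box is in none of these windows. The SOX core ACAAAG was present on either strand in 18.7 percent of 32851 windows of the reference table and in 11 of 36 windows of the 23 member genes that have one, which were the windows of 8 genes. CAGCTG was present in 16.3 percent of all windows and in 4 of the 36, from 3 genes. A copy of one motif cannot share bases with a copy of the other, and a match describes letters only.

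Mal gave a signal of 728, 956 and 833 in stg-/- cerebellum, against 730, 766 and 615 in stg+/+. It gave 1222, 1029 and 1021 in tg-/-, against 777, 915 and 887 in tg+/+, and 809, 1074 and 904 in lh-/-, against 780, 654 and 570 in lh+/+. All 3 mutant arrays lay above all 3 control arrays in tg and in lh, while 1 stg-/- array lay among the stg+/+ arrays. The mean effect was 0.36 ± 0.08 on the log2 scale, a 1.28-fold rise (SE, n = 9 arrays each, adjusted p = 0.0213), and a second probe set of Mal gave 0.32 (adjusted p = 0.0280). Mal was called without any 1 of the 18 arrays in turn.

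Plekhb1, a membrane-bound protein with a PH domain that is abundant in myelinating cells and in photoreceptors, gave 2721, 3110 and 3168 in stg-/-, against 2497, 2672 and 2168 in stg+/+. It gave 3569, 3321 and 3256 in tg-/-, against 2752, 2707 and 2710 in tg+/+, and 3311, 2594 and 3286 in lh-/-, against 2978, 2699 and 2392 in lh+/+. The groups did not overlap in stg and tg and overlapped in lh. Its mean effect was 0.26 ± 0.06, a 1.201-fold rise (SE, adjusted p = 0.0308). Mobp gave 3286, 3655 and 3136 in stg-/-, against 3258, 3215 and 2386 in stg+/+. It gave 3493, 3204 and 3290 in tg-/-, against 2802, 3038 and 2580 in tg+/+, and 3805, 3849 and 3526 in lh-/-, against 3196, 3098 and 2983 in lh+/+. Only in stg did the Mobp groups overlap. Its mean effect was 0.24 ± 0.06, a 1.18-fold rise (SE, adjusted p = 0.0490), and 3 further probe sets of Mobp gave 0.22 to 0.37, each above an adjusted p of 0.05. Both calls depend on single arrays. Without each of the 18 in turn, Plekhb1 was called 6 times (adjusted p up to 0.0677) and Mobp 2 times, without stg+/+ replicate 1 or 2 (adjusted p up to 0.114).

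The next genes lay just outside the threshold. Mog, the oligodendrocyte glycoprotein on the outer face of myelin, gave 234, 250 and 209 in stg-/-, against 245, 208 and 171 in stg+/+. It gave 242, 254 and 225 in tg-/-, against 224, 238 and 182 in tg+/+, and 271, 283 and 276 in lh-/-, against 178, 184 and 198 in lh+/+. The lh groups stood apart, and those of stg and tg overlapped. The mean effect of Mog was 0.30 ± 0.08 (SE, adjusted p = 0.0502), that of Bcas1, a protein of cells that are starting to myelinate, 0.18 ± 0.05 (SE, adjusted p = 0.0520). Tspan2, a tetraspanin of the sheath, Evi2a, a transmembrane protein encoded in an intron of Nf1, Gsn, the actin-severing protein gelsolin, and Opalin had mean effects of 0.24, 0.22, 0.25 and 0.52 with adjusted p-values of 0.0732, 0.0759, 0.0910 and 0.104. Opalin, with the largest mean effect among the members, gave 143, 226 and 273 over the 9 -/- arrays (lowest, median and highest), against 76.1, 153 and 211 over the 9 +/+ arrays. A dimmer probe set of Tspan2 had an adjusted p of 0.0016 at 0.36 and 1 of 5 others of Gsn had 0.0356 at 0.33.

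**Figure D2:**
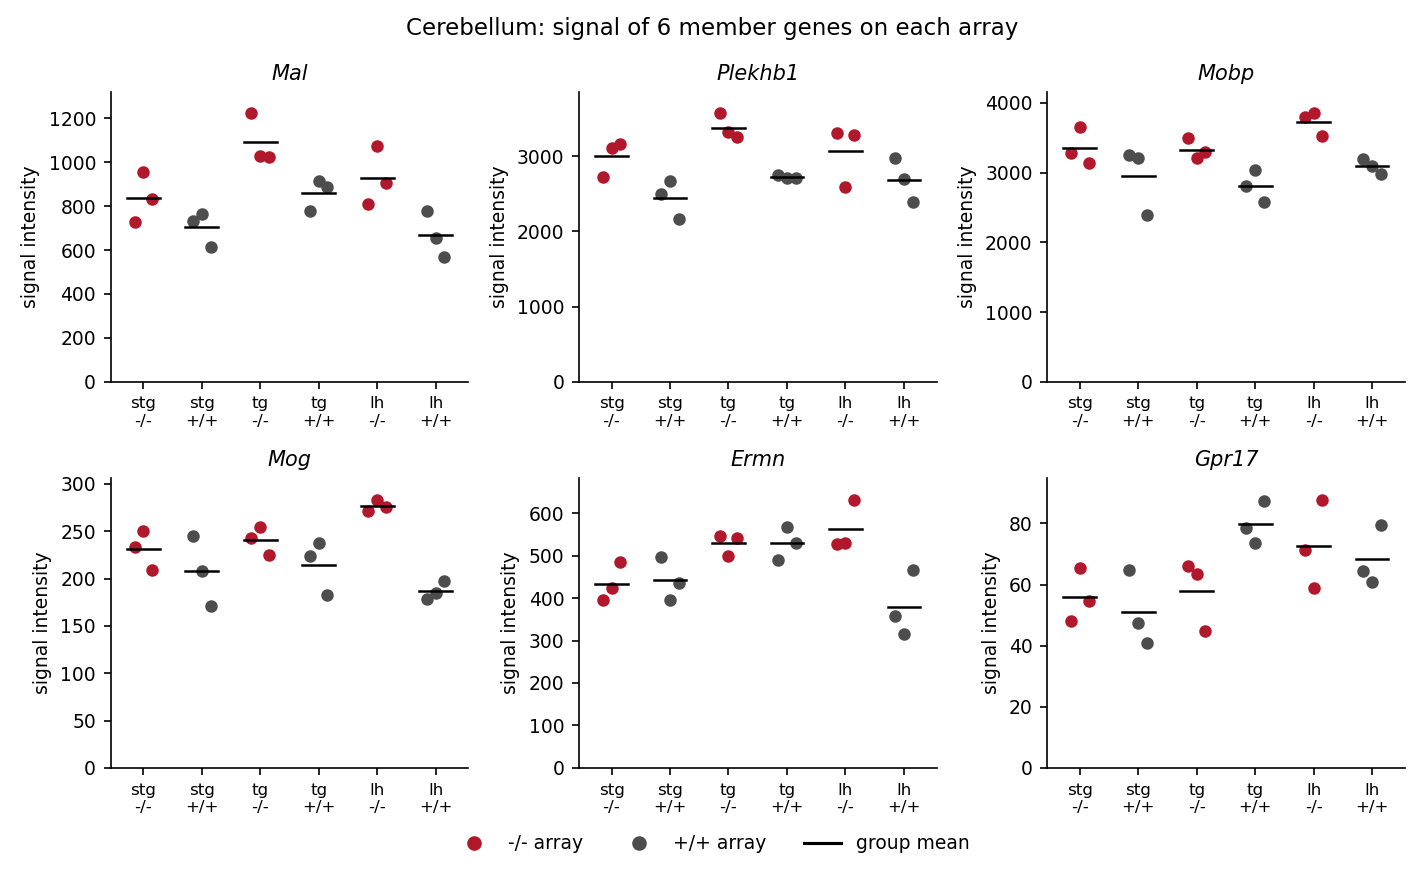
Signal intensity (y axis, linear from 0) of 6 member genes on each of the 18 cerebellum arrays, by line and genotype (x axis), with 1 point per array and a bar at each group's mean. Mal, Plekhb1 and Mobp have higher means in -/- than in +/+ mice of every line, the lh groups stand apart for Mog and Ermn, and Gpr17 is lower in tg-/- mice, at 44.7 to 65.9 against 73.6 to 87.2.

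By the probe sets used, Mbp and Cnp stayed close to 0. Mbp gave 8381, 10675 and 11281 over the 9 -/- cerebellum arrays (lowest, median and highest), against 7446, 9975 and 11383 over the 9 +/+ arrays, and Cnp gave 3601, 4102 and 4714, against 2984, 4163 and 4754. Their mean effects were 0.03 ± 0.08 and 0.04 ± 0.07 (SE, adjusted p = 0.936 and 0.894). The other, dimmer probe sets gave 0.01 to 0.27 for Mbp and 0.14 and 0.12 for Cnp, each above an adjusted p of 0.05. Mag, the glycoprotein next to the axon, gave 413, 536 and 600 in -/- mice, against 378, 465 and 577, with a mean effect of 0.14 ± 0.09 (SE, adjusted p = 0.590). The groups overlapped in all 3 genes. Cryab, a small heat shock protein, Gjb1 and Gpr17 were the members below 0 in the mean effect by the probe sets used, at -0.05, -0.08 and -0.08. A dimmer probe set went the other way for Cryab, at 0.06, and for Gjb1, at 0.19, each above an adjusted p of 0.05.

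Most single precursor genes changed direction between lines, although their median lay slightly above 0 in each, at 0.08 in stg, 0.02 in tg and 0.09 in lh. Olig1, at 714, 810 and 982 over the -/- arrays and 647, 782 and 948 over the +/+ arrays, had a mean effect of 0.09 ± 0.06 (SE, adjusted p = 0.589) and was the only 1 of the 5 above 0 in every line. Pdgfra gave 90.0, 125 and 191 in -/- mice, against 93.3, 131 and 177, and Olig2 gave 70.3, 104 and 147, against 59.5, 87.3 and 149, with overlap in both. Their mean effects were 0.02 ± 0.12 and 0.14 ± 0.14 (SE, adjusted p = 0.982 and 0.793). Cspg4 had the widest error, 0.26 ± 0.28 (SE, adjusted p = 0.813), and stg+/+ replicate 2 gave 2.83 where the other cerebellum arrays gave 22.2 to 49.5. In stg alone its change was 0.93 with that array and 0.06 without it. The difference between the medians of mature and precursor genes, 0.07 in the mean effect, was not tested.

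Line by line, no member passed in cerebellum by the probe set used, although the dimmer probe set of Tspan2 rose in stg by 0.41 (adjusted p = 0.0458) and in tg by 0.48 (adjusted p = 0.0302). In stg 0 of 31 members were called higher or lower, against 0.525 and 0.777 percent of all probe sets (1.3 percent in all). In tg 0 were called, against 0.344 and 0.229 percent (0.574 in all), and in lh 0, against 0.0555 and 0.0999 percent (0.155 in all; limma). At an unadjusted p under 0.05 there were 3 higher and 0 lower in stg (5.29 and 5.44 percent of all probe sets, 10.7 together), 6 higher and 1 lower in tg (3.92 and 3.36 percent, 7.28 together), and 12 higher and 0 lower in lh (4.29 and 3.32 percent, 7.62 together). The members above 0 numbered 23 of 31 in stg, 25 in tg and 29 in lh, against 52.3, 48.4 and 53.9 percent of all probe sets. The medians of the mature and other genes were 0.11, 0.17 and 0.27 on the log2 scale, and those of the precursor genes 0.08, 0.02 and 0.09. All 3 -/- arrays lay above all 3 +/+ arrays for 5 members in stg, 9 in tg and 12 in lh, against 8.13, 7.23 and 7.21 percent of all probe sets, and all lay below for 0, 1 and 0, against 7.48, 6.81 and 5.47 percent.

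The lh line had the widest separation. Ermn, an actin-binding protein of the outer sheath, gave 526, 530 and 632 in lh-/- cerebellum, against 358, 315 and 466 in lh+/+, with no overlap. Its change was 0.58 ± 0.13 on the log2 scale (SE, n = 3, adjusted p = 0.0971), and without lh+/+ replicate 3 it was 0.74 and passed (adjusted p = 0.0272). Ermn lies at chr2:58045115-58052864 (GRCm38.p6), 5.37 Mb from Cacnb4, the gene mutated in lh, so the mutation and nearby linked sequence cannot be told apart for it. A second probe set of Ermn gave 0.52. The log2 differences in lh were 0.56 ± 0.13 for Mog, 0.48 ± 0.14 for Mal and 0.27 ± 0.08 for Bcas1 (SE, n = 3, adjusted p = 0.112, 0.246 and 0.269). With a block for the run of records Ermn and Mog passed in lh (adjusted p = 0.0178 and 0.0378), and with a replicate block too (adjusted p = 0.01999 and 0.0243). The lh arrays of replicate 2 correlated at 0.0948, below the limit for a pairing. Bcas1 gave 2225, 2053 and 2033 in lh-/-, against 1683, 1777 and 1756 in lh+/+. Cldn11 gave 511, 707 and 572 in lh-/-, against 404, 447 and 353 in lh+/+, and Ugt8a, the enzyme that makes galactocerebroside, gave 936, 856 and 1045, against 607, 668 and 827. In each of these 3 genes the groups stood apart, and the changes of Cldn11 and Ugt8a, 0.56 and 0.44, had adjusted p-values of 0.302 and 0.305. Mal, Bcas1, Gsn and Nkx2-2 also lie on chromosome 2, between 17.1 and 118 Mb from Cacnb4.

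In tg, the log2 differences of Plekhb1 and Mal, given above, were 0.31 ± 0.11 and 0.34 ± 0.14 and that of Mobp 0.25 ± 0.11 (SE, n = 3, adjusted p = 0.350, 0.499 and 0.563). Pllp gave 353, 242 and 243 in tg-/-, against 203, 181 and 197 in tg+/+, with no overlap and a change of 0.50 ± 0.18 (SE, n = 3, adjusted p = 0.378); it lies on chromosome 8, 10.03 Mb from Cacna1a. Of the 6 members below 0 in tg, Gpr17 had the smallest p, at 65.9, 63.3 and 44.7 in tg-/-, against 78.4, 73.6 and 87.2 in tg+/+. All 3 tg-/- arrays were below the tg+/+ arrays, by -0.46 on the log2 scale (adjusted p = 0.685). In stg, Tspan2 gave 825, 842 and 939 in stg-/-, against 664, 604 and 765 in stg+/+, with no overlap and a change of 0.36 ± 0.11 (SE, n = 3, adjusted p = 0.165). Evi2a gave 394, 458 and 455, against 357, 392 and 347, again with no overlap, a log2 difference of 0.25 ± 0.10 (SE, n = 3, adjusted p = 0.369). With a block for replicate number Tspan2 passed in stg (adjusted p = 0.0319), 1 member where the test without the block called 0. Deviations of same-numbered stg arrays correlated, but replicate 3 alone comes from the second run of records in both stg groups. The correlations therefore cannot tell a pairing of samples from a shared run. Sox10, the member nearest to Cacng2 at 1.03 Mb, gave 143, 116 and 152 in stg-/-, against 121, 157 and 94.1 in stg+/+, and overlapped.

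**Figure D3:**
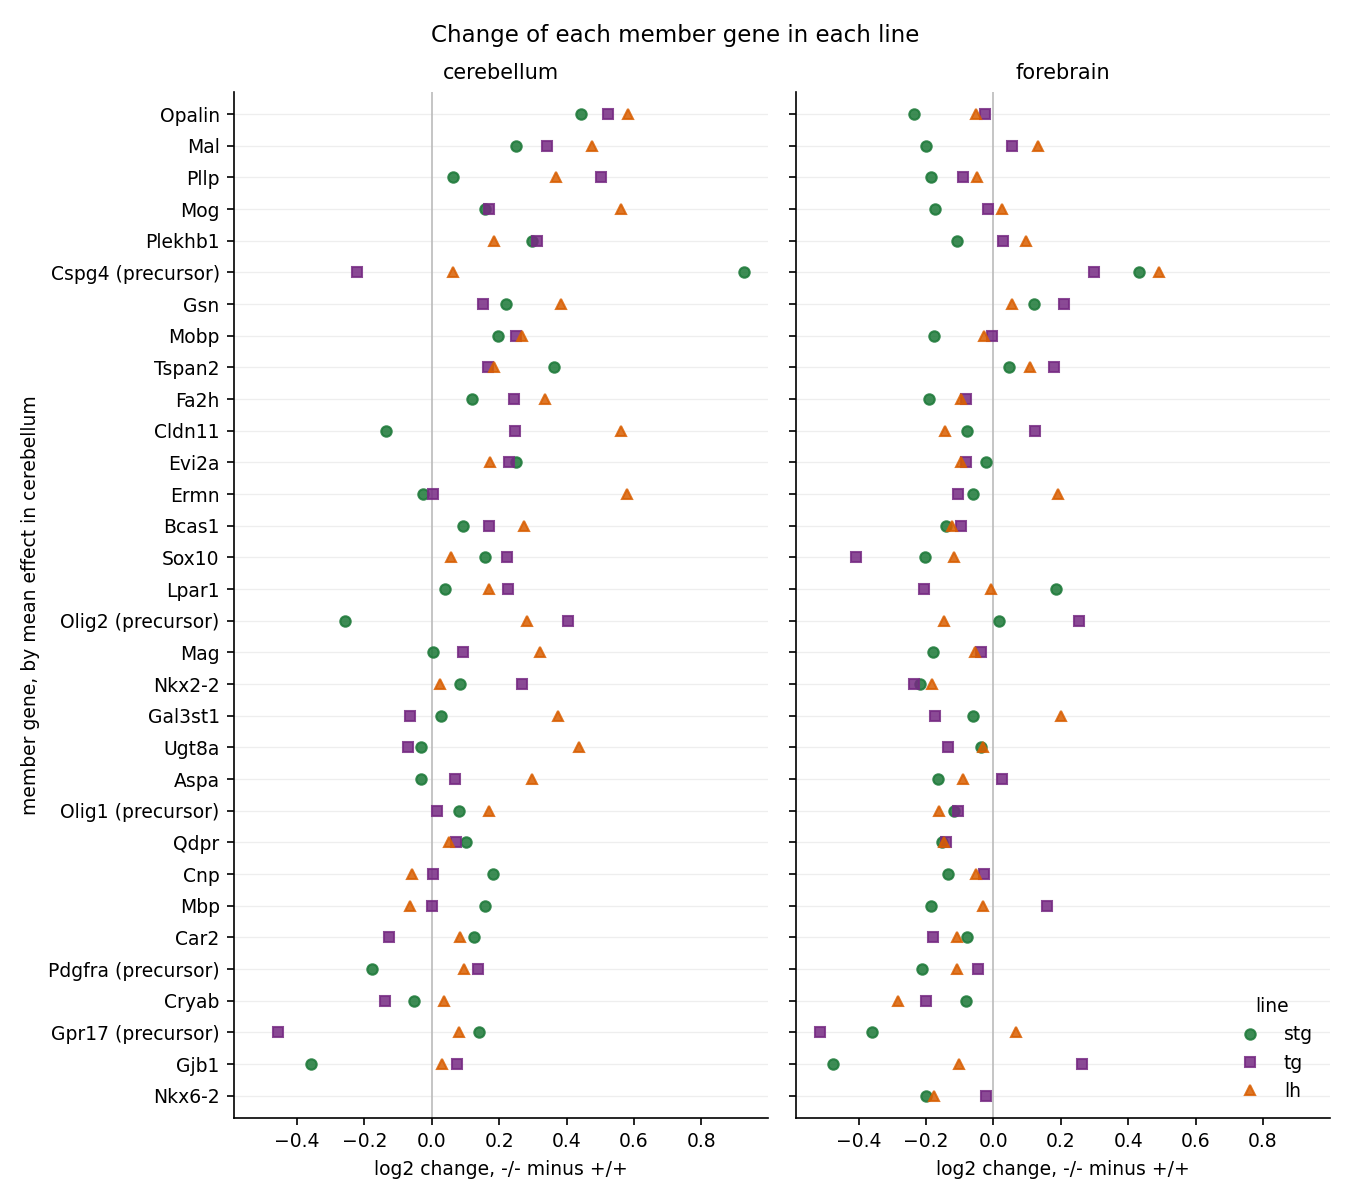
Log2 change, -/- minus +/+ (x axis), of each member gene (y axis, by mean effect in cerebellum) in stg, tg and lh, for cerebellum on the left and forebrain on the right. In cerebellum 17 of 31 genes lie above 0 in all 3 lines and 0 lie below in all 3; in forebrain 3 of 32 lie above and 17 below.

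Of the 31 members, 17 lay above 0 in all 3 lines, against 16.3 percent of all probe sets, and 0 lay below 0 in all 3, against 13.5 percent. Of these 17, 16 were mature and other genes and 1 was Olig1. Without stg+/+ replicate 3 the count was 12, with 11 mature and other genes. Whether the effect differed in size among lines was tested with an F test, which called 0 members against 0.315 percent of all probe sets, and gave 3 at an unadjusted p under 0.05 (Ermn, Ugt8a and Cldn11) against 7.72 percent. The 3 +/+ cerebellum groups were not called as different from each other for any member either, against 0.881 percent of all probe sets, with 7 at an unadjusted p under 0.05 against 10.2 percent. The smallest p among them was that of Olig1 (adjusted p = 0.159).

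Array by array, the mature and other genes were set against the mean of each gene over the 18 arrays of its tissue. The mean deviation was -0.04, 0.10 and -0.02 on the stg-/- cerebellum arrays, against -0.02, 0.03 and -0.28 on the stg+/+ arrays. It was 0.22, 0.07 and 0.10 in tg-/-, against -0.05, 0.01 and -0.01 in tg+/+, and 0.17, 0.09 and 0.07 in lh-/-, against -0.13, -0.11 and -0.21 in lh+/+. The groups stood apart in tg and lh. In stg they overlapped, and replicate 3 of stg+/+ alone lay far below, lowest of the 6 stg arrays in 18 of 26 genes; without it the stg median was -0.0036 and 16 of 31 members lay above 0. In the whole set of cerebellum arrays, the tg-/- and lh-/- arrays were all above the +/+ arrays of all 3 lines.

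**Figure D4:**
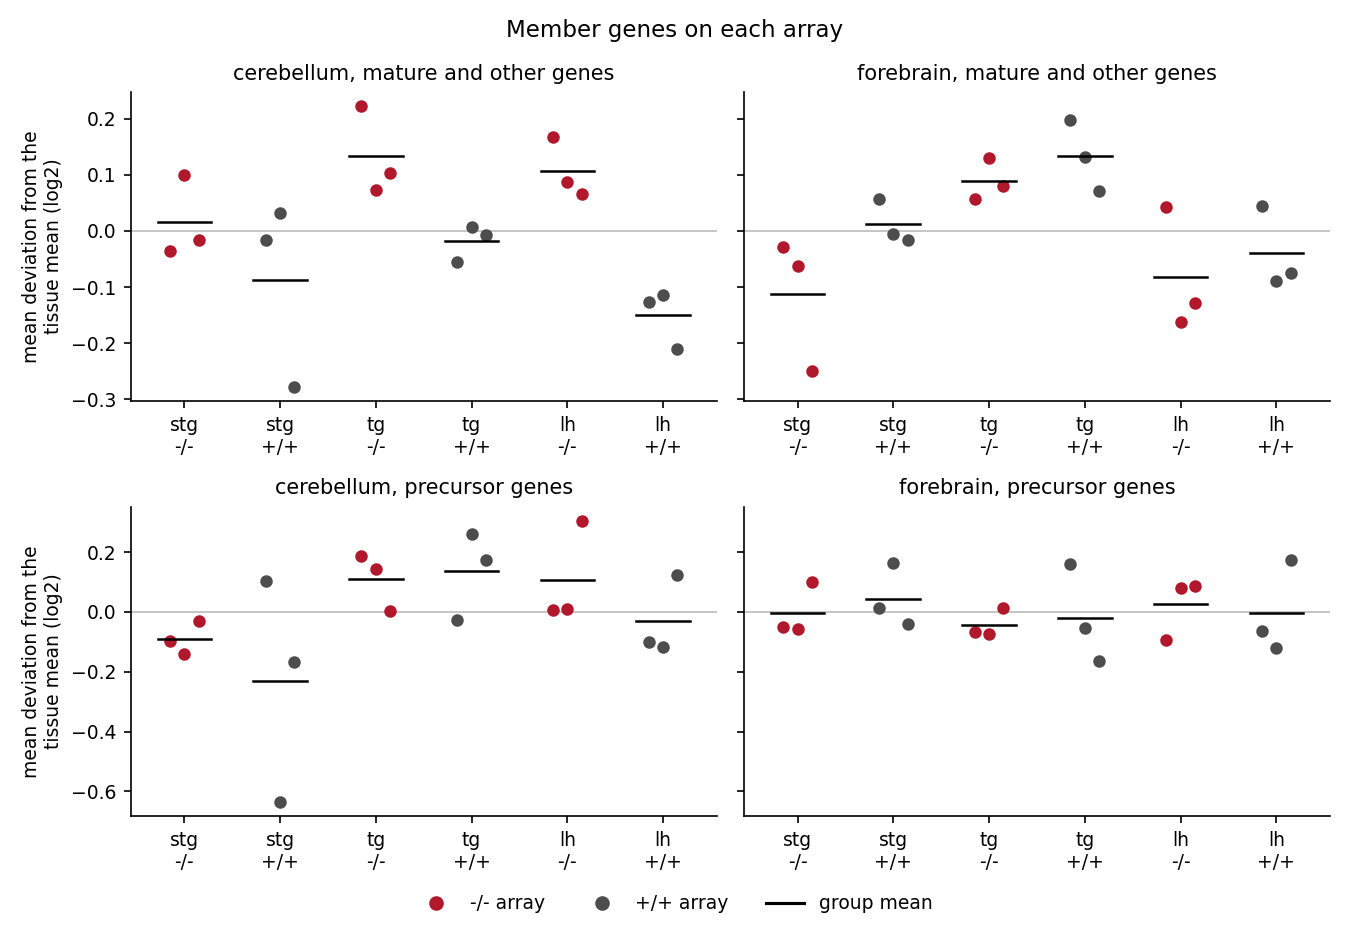
Mean deviation from the tissue mean, on the log2 scale (y axis), of the mature and other genes (top) and of the 5 precursor genes (bottom) on each array, by line and genotype (x axis), for cerebellum (left) and forebrain (right); bars are group means of 3 arrays. The tg and lh groups do not overlap for mature genes in cerebellum, and stg+/+ replicate 3 lies at -0.28 there; the low point of the precursor genes, -0.64, is stg+/+ replicate 2.

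Markers of other cell types moved in the same comparison. In the mean effect in cerebellum, 3 of 8 tested microglia markers rose and 0 fell, with a median of 0.37, and C1qc, a complement component, at 0.67 (adjusted p = 0.00159). The summed signal of the 11 microglia markers was 1187 to 1732 in -/- mice and 1028 to 1279 in +/+ mice. Of 10 astrocyte markers 3 rose and 0 fell, with a median of 0.15, and the sum was 22290 to 24596 in -/- mice and 20289 to 23278 in +/+ mice. Gfap, the astrocyte filament, rose by 0.74 (adjusted p = 0.00187). Of 8 choroid plexus markers 0 were called, although all 8 lay above 0 with a median of 0.85. Their sum was 10647 to 16748 in -/- mice and 3951 to 14690 in +/+ mice. Ttr, 1 of the 8, gave 3624 on stg+/+ replicate 2 and 6975 on lh+/+ replicate 3, and 9300 to 14211 on the other cerebellum arrays. In tg the sum was 12523 to 15087 in -/- mice and 12038 to 13187 in +/+ mice. Of 10 neuron markers 1 fell, Snap25, with a median of -0.08. In lh, the summed signal of 10 fibroblast and pericyte markers was 1810 to 2353 in -/- mice and 1473 to 1585 in +/+ mice. The part of these lists in the members' shift was not tested. Of 4 Schwann cell markers measured, 1 passed the filter on dim probe sets, Pmp22, at 0.12, while Pmp2 lay at 0.826 to 17.6 over the cerebellum arrays.

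Other genes of the sheath gave few calls. Of 36 myelin and oligodendrocyte genes outside the members, 2 rose and 1 fell in the mean effect in cerebellum, with a median of 0.10 and 29 above 0. Cd9, a tetraspanin of the outer sheath, rose by 0.32 ± 0.07 (SE, adjusted p = 0.0257), Lingo1, an inhibitor of myelination that is mostly neuronal, rose by 0.37 ± 0.09 (SE, adjusted p = 0.0284), and Fez1, a transport adaptor also found in neurons, fell by 0.22 on the log2 scale (adjusted p = 0.0186). Of 14 other precursor genes 2 rose, Cd9 and Ednrb, an endothelin receptor shared with astrocytes, at 0.25 ± 0.05 (SE, adjusted p = 0.0182), with a median of 0.18. Of 18 sterol synthesis genes 0 were called, with a median of 0.07; in stg alone Fdps, which makes farnesyl diphosphate, rose by 0.53 ± 0.10 (SE, n = 3, adjusted p = 0.00604). Of 15 sphingolipid genes and of 12 genes of the node of Ranvier 0 were called, with medians of 0.03 and -0.06.

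In forebrain no member was called in any line or in the mean effect, and most lay slightly below 0. The background was 0.0111 percent of probe sets called in stg, 0.189 percent in tg, 0.0148 percent in lh and 0.0148 percent in the mean effect, so this tissue gave few calls for any gene. The members above 0 numbered 5 of 32 in stg, 10 in tg and 9 in lh, against 50.4, 50.6 and 52.9 percent of all probe sets. The medians of the mature and other genes were -0.15, -0.04 and -0.05, and those of the precursor genes -0.12, -0.05 and -0.11. The 3 arrays with pituitary transcripts are all +/+ arrays, of stg and lh, so they bear on 1 genotype only. Over the alternatives that include a fit without them, the mature median was -0.20 to -0.07 in stg and -0.10 to -0.03 in lh. At an unadjusted p under 0.05 there were 0 members in stg, Gpr17 in tg and Cryab in lh, both lower, against 2.55, 5.68 and 3.87 percent of all probe sets in either direction and 1.21, 2.66 and 1.32 percent lower. In the mean effect 5 were lower and 1 higher at that level (1.85 and 2.65 percent of all), 26 of 32 lay below 0, and 17 lay below 0 in all 3 lines against 12.1 percent of all, or 13 without stg-/- replicate 3.

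In stg forebrain, Mbp gave 9872, 10033 and 9699 in stg-/-, against 10353, 12490 and 10924 in stg+/+, and Pdgfra gave 271, 301 and 306, against 320, 343 and 356. In both genes the groups stood apart, and the changes of -0.19 ± 0.10 and -0.21 ± 0.13 did not pass (SE, n = 3, adjusted p = 0.99997 in each). They were the 2 members with every stg-/- array lower, against 3.87 percent of all probe sets, and 0 had every array higher, against 3.59 percent. The other, dimmer probe sets of Mbp gave -0.16 to 0.13 in stg forebrain, so its direction there depends on the probe set. A dimmer one of Pdgfra gave -0.19. The array stg-/- replicate 3 lay at -0.25 in the mean deviation of mature genes, against -0.03 and -0.06 on the other stg-/- arrays and 0.06, -0.01 and -0.02 on the stg+/+ arrays. Without it the median of mature genes in stg was -0.04 and 10 of 32 members lay above 0. The 3' to 5' difference of Actb, a sign of RNA quality, was 0.68 to 0.79 in stg-/- forebrain and 0.84 to 1.14 in stg+/+ forebrain. That of Gapdh overlapped, at -0.47 to -0.36 in stg-/- and -0.47 to -0.25 in stg+/+ forebrain. The part of RNA quality in the result was not tested.

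In tg forebrain, Gpr17 gave 174, 96.0 and 92.2 in tg-/-, against 208, 161 and 137 in tg+/+, which overlapped, with a change of -0.51 ± 0.22 (SE, n = 3, adjusted p = 0.825). Its change in the cerebellum of the same line was also negative, as given above. In lh forebrain, Cryab gave 1135, 859 and 1068 in lh-/-, against 1274, 1051 and 1403 in lh+/+, with overlap and a change of -0.28 ± 0.12 (SE, n = 3, adjusted p = 0.9997). A dimmer probe set of Cryab gave -0.05 in lh forebrain and -0.12 in the mean effect of that tissue. Olig1 gave 1314, 1322 and 1383 in lh-/-, against 1477, 1446 and 1572 in lh+/+, the 1 member with every lh-/- array lower, against 4.5 percent of all probe sets. Cspg4 gave 50.5, 63.7 and 51.1 in lh-/-, against 41.0, 27.7 and 48.4 in lh+/+, the 1 member with every array higher, against 6.2 percent. In the mean effect Cryab was at -0.19 ± 0.07, Olig1 at -0.13 ± 0.05, Qdpr, a reductase of biopterin metabolism abundant in oligodendrocytes, at -0.15 ± 0.06, and Cspg4 at 0.41 ± 0.17 (SE, n = 9, adjusted p = 0.999 in each). The second, dimmer probe set of Cspg4 went the other way in forebrain. It gave -0.34 in stg, -0.38 in tg, -0.44 in lh and -0.38 in the mean effect, so the direction of Cspg4 here depends on the probe set. Mog, Mag, Mobp and Cnp had mean effects of -0.05, -0.09, -0.07 and -0.07 in forebrain by the probe sets used. The 3 further probe sets of Mobp went the other way, at 0.09 to 0.14, and the others of Cnp gave -0.09 and 0.02. The F test among lines called 0 members in forebrain, against 0.0259 percent of all probe sets, with 0 at an unadjusted p under 0.05 against 3.76 percent. Among the 3 +/+ forebrain groups 0 were called, against 0.414 percent, and 8 lay at that level, against 7.06 percent.

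The effects in the 2 tissues were then set against each other in a fit over all 36 arrays. For single lines 0 of 32 members were called, against 0.248 percent of all probe sets in stg, 0.0259 percent in tg and 0.0111 percent in lh. At an unadjusted p under 0.05 the effect was higher in cerebellum for 5 members in stg, 3 in tg and 7 in lh, against 3.33, 1.95 and 2.59 percent of all, and lower for 0 in each. In lh, Bcas1 differed by 0.40 ± 0.12, Mog by 0.53 ± 0.18, Olig1 by 0.33 ± 0.12 and Cldn11 by 0.71 ± 0.26 (SE, n = 3, adjusted p of 0.562 to 0.841). In stg, Mobp differed by 0.37 ± 0.15 and Mal by 0.45 ± 0.19 (SE, n = 3, adjusted p = 0.615 and 0.698).

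The mean effect of the 3 lines was compared between tissues in a contrast added after the data were seen. It called 0 members, against 0.27 percent of all probe sets, while 14 of 32 were higher in cerebellum and 0 lower at an unadjusted p under 0.05, against 3.83 and 2.92 percent of all. Of the 32, 31 lay above 0, against 49.6 percent of all probe sets, and all 27 mature and other genes did. The median was 0.23 for these 27 and 0.14 for the 5 precursor genes. Bcas1 came closest, at 0.30 ± 0.07 (SE, n = 9, adjusted p = 0.0603), with 1655, 1838 and 2225 over the -/- cerebellum arrays, against 1405, 1646 and 1777 in +/+ cerebellum, and 1855, 2250 and 2414 in -/- forebrain, against 2216, 2368 and 2461 in +/+ forebrain. Evi2a, Mobp, Mog and Opalin followed at 0.28, 0.31, 0.35 and 0.62, with adjusted p-values of 0.121, 0.145, 0.232 and 0.233. Without stg+/+ cerebellum replicate 3, 30 of 32 lay above 0, and without stg-/- forebrain replicate 3 also 30. The medians of other lists in this contrast were 0.16 for astrocyte, 0.26 for microglia and 0.86 for choroid plexus markers, with 0 called in each, and their part in the members' difference was not tested.

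**Figure D5:**
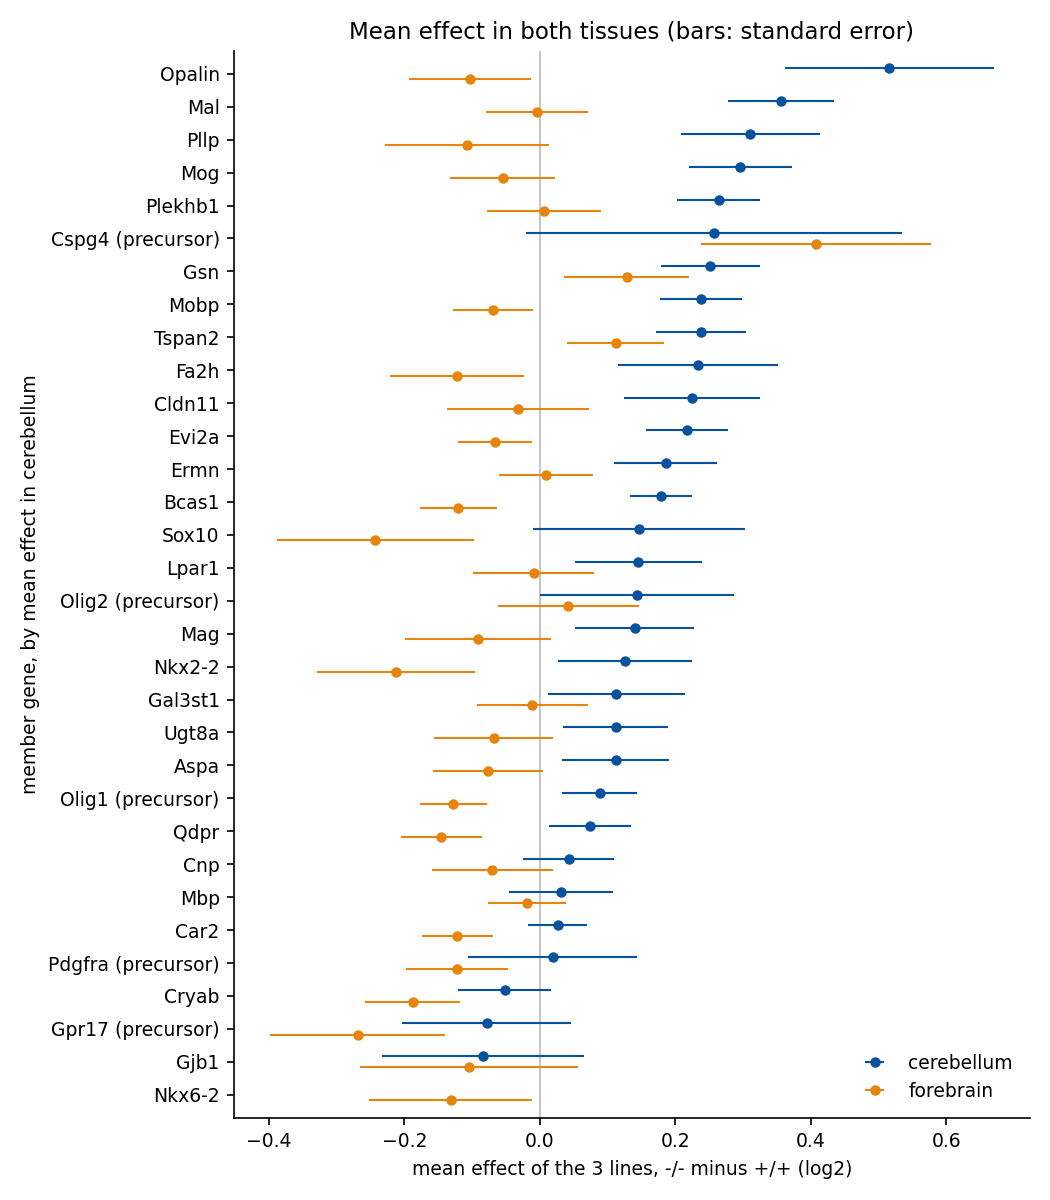
Mean effect of the 3 lines, -/- minus +/+, on the log2 scale (x axis), in cerebellum and in forebrain for each member gene (y axis, by mean effect in cerebellum), with the standard error as bars and 9 arrays per genotype and tissue. In cerebellum 28 of 31 genes lie above 0, and in forebrain 26 of 32 lie below 0; Nkx6-2 has no cerebellum value because its signal lay under the filter.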

How the data were processed

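Total RNA from forebrain and cerebellum was measured on 36 Affymetrix arrays, in 12 groups of 3. The groups were taken from the sample titles in cerebellum and from the sample descriptions in forebrain. Forebrain replicate numbers follow the order of the records. The deposited values are signal intensity per probe set on a linear scale, already scaled by the authors, as the values show: the mean of each array after trimming 2 percent at either end is 150. The sources used here do not give the software or the probe summary. Array number limits the precision, and values ran between 0.0223 and 16805.

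Signals were transformed here as log2 of the deposited intensity plus 2.98, their 10th percentile, which understates changes of dim probe sets. The 40th percentile of mean log2 signal served as a floor, which kept 27022 of 45101 probe sets, with 64 controls left out. These were fitted with limma 3.58.1 in R 4.3.3, with an intensity trend and Benjamini-Hochberg adjustment. The 18 arrays of a tissue were fitted together for the effects of genotype and all 36 for the difference between tissues. The fit was tested on simulated data. Symbols came from the platform annotation: 34958 probe sets name 1 gene, 932 several and 9211 none. Of the 34958, 34754 were matched to current symbols by Entrez ID.

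The members and the lists of other genes were chosen with earlier results of these data known. Named in full were members past an adjusted p of 0.05 or with the smallest p in a comparison, Mbp, Mog, Mag, Mobp and Cnp, and the 5 precursor genes. Of the other lists, only some called genes were named, and these and further members were chosen after their values were seen. Groups share replicate numbers. In stg cerebellum replicate 3 is the only array of the second run of records in each group. The correlations given next cannot tell a pairing from a shared run there. In cerebellum, deviations of same-numbered -/- and +/+ arrays from their group means correlated at 0.156, 0.188 and 0.380 in stg, all above the limit of 0.1 for a pairing, while 1 of 3 pairs fell below it in tg (0.0405) and in lh (0.0948). Alternatives were the filter, the added constant, quantile normalization, array weights, no trend, a replicate block, a block for the run of deposited records, and each array left out. In forebrain and between tissues the 3 arrays with pituitary transcripts were also left out together.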

Additional observations from a re-analysis of the deposited data

How the results depend on the processing

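The 26 calls between tissues were 23 to 27 under every alternative, and single-line counts in forebrain stayed at 0. In cerebellum the count in the mean effect, 3, was 1 with no filter, 5 with the filter at the 60th percentile, 5 with quantile normalization, 0 with no intensity trend, 9 with a block for line and run of records and 10 with the replicate block; leaving out 1 array gave 1 to 4. The replicate numbers met the limit for a pairing in stg but not in every pair of tg and lh. With the replicate block 1 member was called in stg (Tspan2) and 4 in lh. That block also called 1 where the effect was compared among lines and 1 among the +/+ groups, where array weights also gave 1. Both blocks lie within tissue and line. Between tissues or among +/+ groups they compare levels at 1 run or 1 replicate number, so those counts are not adjusted for run or replicate. The run block called 3 in lh. Leaving out 1 array gave 0 to 1 in lh and 0 to 1 among the +/+ groups, in both the 1 coming without lh+/+ replicate 3. The mean effect compared between tissues called 1 with the 60th percentile filter, 1 with quantile normalization, 1 with array weights, 3 with the run block, 1 with the replicate block and 0 to 1 without single arrays. In stg cerebellum the median of mature genes was 0.040 within the first run of records and 0.23 within the second, and that of precursor genes was below 0 in 4 settings, down to -0.18 with the 60th percentile filter. In tg cerebellum the median of mature genes was 0.26 within the first run of records and 0.10 within the second. That of precursor genes was 0.27 and -0.11, and -0.22 over Pdgfra, Cspg4 and Gpr17 alone. In tg forebrain the first run gave -0.13 for mature and -0.21 for precursor genes, and in lh forebrain Pdgfra, Cspg4 and Gpr17 alone gave 0.068. Without single arrays the mature medians ran between -0.19 and -0.043 in stg forebrain (-0.043 without stg-/- replicate 3) between -0.10 and -0.037 in tg forebrain and between -0.14 and -0.0085 in lh forebrain. The causes were not tested. Of 1697 values of named members under alternatives, 0 reversed, 55 lost and 20 gained a call. Dim probe sets such as Cspg4 and Nkx6-2 limit the precision.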
